A study of Mus musculus with 6 samples.

Results

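The heparan sulfate 3-O-sulfotransferase genes form a family of 7 in the mouse: Hs3st1, Hs3st2, Hs3st3a1, Hs3st3b1, Hs3st4, Hs3st5 and Hs3st6. Their accessible chromatin was described in bone marrow derived macrophages of old and young mice. The 7 were taken by symbol from 21631 protein-coding genes of RefSeq, each with its span (GRCm38.p6, the assembly behind mm10) and 10 kb on each side, and all 7 matched. The family was chosen by a measured value, the greater peak coverage of the Hs3st4 locus in old libraries, both in the full peak lists and among the 50000 strongest peaks of each library. The Hs3st4 difference between the ages is therefore given as a description with no test. Old mice were over 78 weeks old and young mice 3 weeks old, with 3 ATAC-seq libraries per age. All were wild-type BALB/c, and no treatment or transgene is labelled. ATAC-seq marks accessible DNA by where a transposase inserts, and each library was made from 50000 cells labelled F4/80+CD169+, a pair of macrophage surface proteins. Nothing in the labels ties the replicates to separate animals, and the p-values then measure no more than the library-to-library spread, which can be technical.

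Heparan sulfate is a sugar chain carried by cell surface and matrix proteins, and enzymes of the Golgi add sulfate groups to it in steps. The Hs3st enzymes act late and add a rare sulfate to glucosamine units, and the pattern they make sets which proteins the chain can bind. HS3ST1 makes the site for antithrombin, the inhibitor of clotting proteases, and HS3ST5 can make that site too. HS3ST2, HS3ST3A1, HS3ST3B1, HS3ST4 and HS3ST6 are known for making chains that bind the glycoprotein D of herpes simplex virus. In macrophages, surface heparan sulfate binds chemokines and growth factors.

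Peaks lay over the start sites of some members and not of others. The start-site window ran 250 bases before to 50 after the RefSeq start, and 6 of 7 members had one in the sequence table, all but Hs3st6. The windows of Hs3st1, Hs3st3a1, Hs3st3b1 and Hs3st5 overlapped a peak in all 6 libraries. At Hs3st5 the peak of old replicate 3 began at chr10:36506814, after the start at 36506807. Among the 50000 strongest peaks the Hs3st3a1 window kept a peak in 1 library and the Hs3st5 window in 0, against 6 for Hs3st1 and Hs3st3b1. The windows of Hs3st4 and Hs3st2 overlapped a peak in none, at either age. For Hs3st2 this depended on the window: with 1 kb added on each side, an alternative chosen after seeing the data, it had a peak in 5 libraries, while Hs3st4 still had none. The start used for Hs3st2, chr7:121392296, lies inside its gene span, which begins at 121391585, and the window does not reach that end. The starts used for Hs3st1, Hs3st4 and Hs3st5 also lie inside their spans. The Hs3st2 region chr7:121391329-121391494 lies just ahead of the gene span and upstream of the start in the sequence table. It was covered over 166, 0 and 102 bp in old and 43, 107 and 31 bp in young. The 250 bases before the start are shown for the pair with the strongest start-site peaks and the pair with none in the window, 5′ to 3′ on the gene's strand (RefSeq, GRCm38.p6). Capitals mark GGGCGG or its complement CCGCCC, the letters bound by factors of the SP family.

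Hs3st4, no start-site peak (chr7:123982578-123982827, plus strand): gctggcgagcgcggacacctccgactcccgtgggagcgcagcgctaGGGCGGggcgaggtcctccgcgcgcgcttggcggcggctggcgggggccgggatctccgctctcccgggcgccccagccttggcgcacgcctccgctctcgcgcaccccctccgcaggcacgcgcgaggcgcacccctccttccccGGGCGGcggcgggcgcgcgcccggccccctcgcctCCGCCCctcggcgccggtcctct
Hs3st2, no start-site peak (chr7:121392046-121392295, plus strand): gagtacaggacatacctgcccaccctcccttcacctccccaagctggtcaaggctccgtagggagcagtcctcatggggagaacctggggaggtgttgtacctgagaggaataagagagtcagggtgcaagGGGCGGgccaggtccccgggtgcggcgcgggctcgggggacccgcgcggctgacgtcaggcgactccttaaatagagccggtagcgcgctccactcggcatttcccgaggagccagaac
Hs3st1, start-site peak in all libraries (chr5:39644632-39644881, minus strand): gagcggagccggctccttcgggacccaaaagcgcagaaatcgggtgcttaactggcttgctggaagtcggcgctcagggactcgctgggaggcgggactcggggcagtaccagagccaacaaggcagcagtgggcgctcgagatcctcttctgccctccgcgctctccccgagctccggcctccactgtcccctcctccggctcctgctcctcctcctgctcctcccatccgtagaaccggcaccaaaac
Hs3st3b1, start-site peak in all libraries (chr11:63922285-63922534, minus strand): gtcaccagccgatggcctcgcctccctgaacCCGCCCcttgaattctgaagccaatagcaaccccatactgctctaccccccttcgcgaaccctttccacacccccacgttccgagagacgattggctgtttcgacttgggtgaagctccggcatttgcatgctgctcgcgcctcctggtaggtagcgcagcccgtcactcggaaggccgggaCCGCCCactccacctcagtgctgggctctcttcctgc

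The Hs3st4 stretch is the most CpG-rich of the family, with 43 CpG and 82% G and C, and 99.3% of the 32619 start-site stretches on these chromosomes had fewer CpG. Stretches of this kind were usually under a peak. Of 234 with at least 43 CpG, 198 (84.6%) overlapped a peak in all 6 libraries and 12 (5.13%), Hs3st4 among them, in none. The Hs3st2 stretch, which lies inside the gene span, had 17 CpG. Of the 7727 stretches with at least 17, 3.82% had no peak in any library. Hs3st3b1 also had 17, Hs3st1 had 19, Hs3st3a1 had 20 and Hs3st5 had 8. Over all stretches the median was 6 CpG, and 45.2% had no peak in any library.

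Matches to short motifs were found in members with and without a start-site peak. GGGCGG, which itself holds a CpG, occurred on either strand 3 times in Hs3st4, 2 times in Hs3st3b1 and 1 time each in Hs3st2, Hs3st3a1 and Hs3st5. Hs3st1 had no match, and 33.0% of all stretches held one. The letters CCAAT occurred 2 times in Hs3st3b1 and 1 time each in Hs3st3a1 and Hs3st5 (34.0% of all stretches), and TGACGTCA, the cyclic AMP response element, 1 time each in Hs3st2 and Hs3st3a1 (1.56%). TATAAA (12.4%), GAGGAAG, a core bound by PU.1 (10.7%), and TGANTCA, the AP-1 letters (6.78%), occurred on neither strand of any of the 6.

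**Figure D1:**
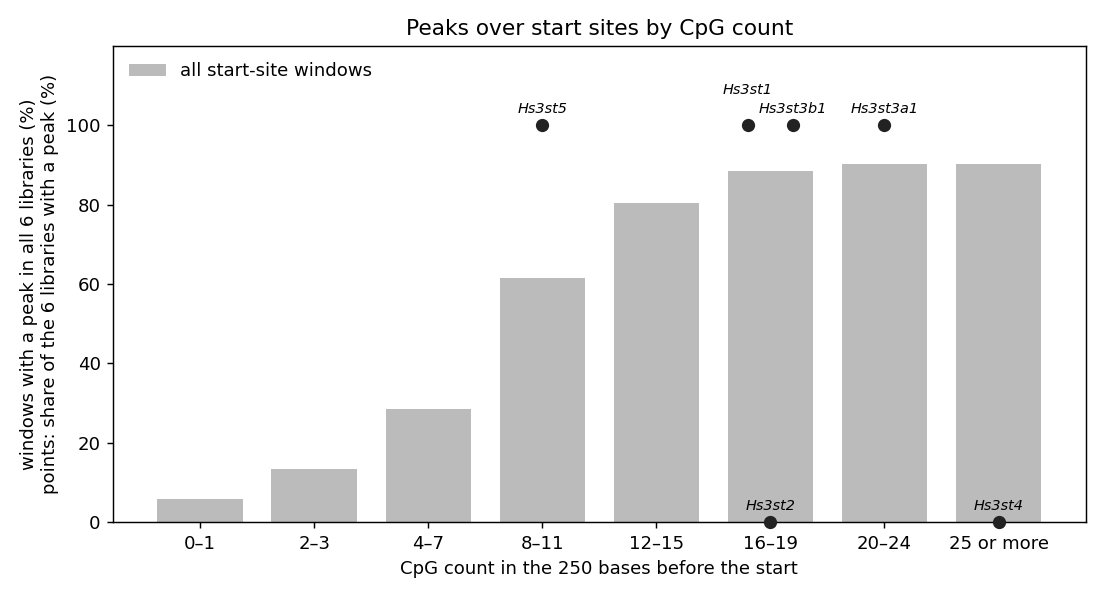
Share of start-site windows with a peak in all 6 libraries (grey bars, percent) by the CpG count of the 250 bases before the start. Black points give the share of the 6 libraries with a peak for each Hs3st member: 4 members stand at 100%, while Hs3st2 and Hs3st4 stand at 0 in classes where most windows had a peak. With 1 kb added on each side, the Hs3st2 window had a peak in 5 libraries. Among the 50000 strongest peaks the Hs3st3a1 window had a peak in 1 library and the Hs3st5 window in 0.

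The lists held 215947 to 245667 peaks in old and 223018 to 254410 in young libraries and covered 48.2 to 63.8 Mb in old and 52.4 to 66.1 Mb in young. Read depth is unknown, so the absence of a peak means that none was called. Covered length was the number of bp of a locus under peaks, scaled to the mean library total over all loci. The F4/80 gene Adgre1, the CD169 gene Siglec1 and 6 other macrophage loci had peaks in every library, but so did all 6 mesenchymal and all 5 B-cell marker loci. The same held for all 4 endothelial, all 4 neutrophil and all 3 neuron loci and for 3 of 4 T-cell loci, so this measure does not tell cell types apart. In bulk cells, more cells with an open site and more cutting per cell cannot be told apart.

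Hs3st4 (chr7:123982366-124398989) is the longest gene of the family, at 417 kb, and its locus was covered about as widely in each old library and less in each young one. Its scaled covered length was 2117, 2563 and 2487 bp in old replicates 1, 2 and 3, against 1134, 1088 and 1156 bp in young replicates 1, 2 and 3. The lowest old value lay well above the highest young value, and the young values lay close together; 8.63% of all tested loci had every old value above every young value. The means were 2389 ± 238 bp in old and 1126 ± 34.4 bp in young (SD, n = 3), a log2 change of 0.96 (SE 0.12) on log2(bp + 200). Leaving out each library gave 0.92 to 1.04. Before scaling the values were 2359, 2179 and 2163 bp in old and 1231, 1018 and 1323 bp in young.

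**Figure D2:**
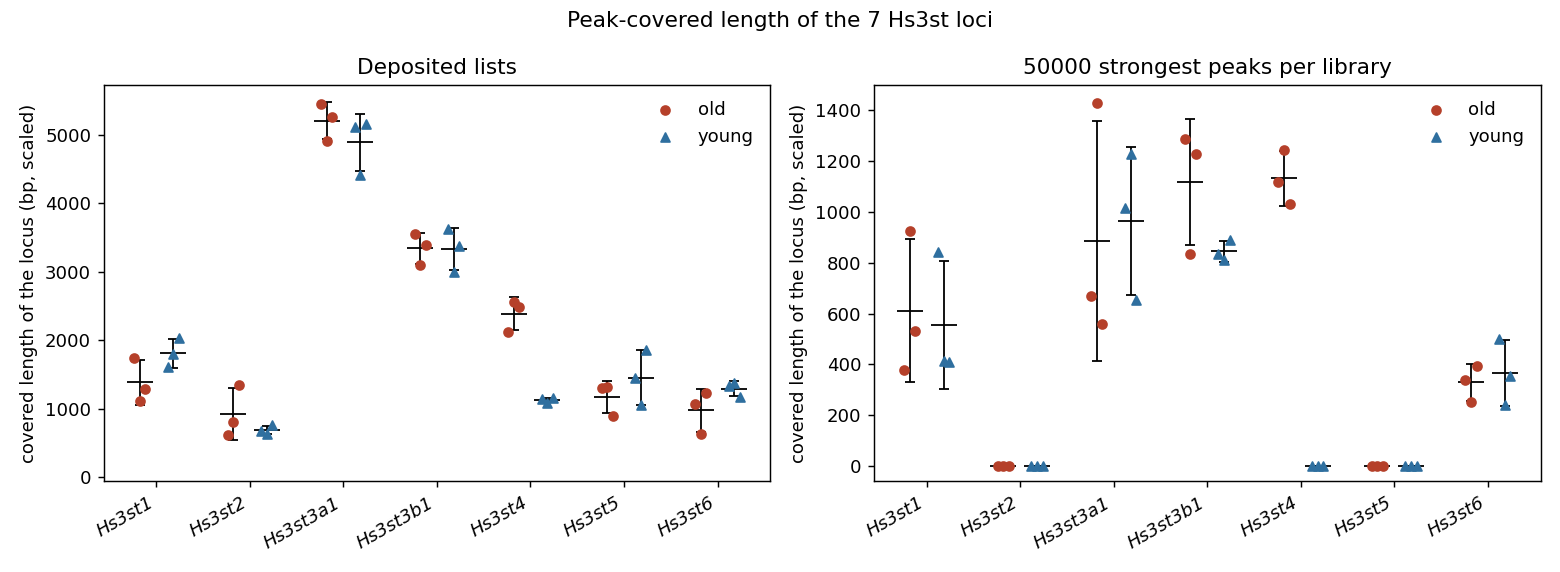
Peak-covered length (bp, scaled to the mean library total) of the 7 Hs3st loci in old (red circles) and young libraries (blue triangles), with mean and SD (n = 3), in the full lists (left) and among the 50000 strongest peaks per library (right). The old points of Hs3st4 lie apart from its young points in both panels, and those of every other member overlap or are all at 0. Hs3st4 was chosen for this difference.

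No peak of Hs3st4 lay within 1 kb of its start in any library. The lncRNA gene Gm26974 lies over that start and over the upstream regions chr7:123979131-123979284 and chr7:123979422-123979544, which are counted in the Hs3st4 locus. The peaks of the locus formed 20 merged regions, which are peaks of any library that overlap by 1 bp or more. Old lists had 10, 12 and 12 peaks here, against 5, 6 and 7 in young lists. The widest region, chr7:124258552-124259485, lies inside the gene, 276 kb downstream of the start. It held 1 unbroken peak in each old library, of 932, 863 and 932 bp, against 2 separate peaks in each young library, of 599, 672 and 511 bp together. The best peak there had a −log10 q of 14.6, 10.3 and 11.0 in old and 4.53, 3.91 and 5.01 in young libraries. Within its own list it ranked in the top 12.3%, 10.9% and 12.4% in old and the top 38.2%, 39.3% and 36.9% in young, in lists that differ in length.

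The region with the next highest −log10 q in old libraries, chr7:124186286-124186587, lies 204 kb downstream of the start. Its single peak covered 292, 232 and 238 bp in old libraries, against 150, 119 and 179 bp in young libraries. A further region, chr7:124241946-124242520, was covered over 444, 241 and 235 bp in old and 374, 148 and 252 bp in young, so that the ages overlapped there. In young replicates 2 and 3 its best −log10 q, 2.65 and 2.58, was above the 1.87 and 2.27 of the region at 204 kb. These 3 were the Hs3st4 regions with a peak in all 6 libraries. Just 1 region had a peak in each old and no young library, chr7:124284190-124284458, with peaks of 129, 262 and 118 bp and a −log10 q of 1.77, 1.33 and 2.28, low in their lists.

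Summed without scaling, the widest region accounted for 30.2% of the difference between the ages, with 909 ± 39.8 bp in old and 594 ± 80.6 bp in young (SD, n = 3). The other 19 regions made up 69.8%, with 1325 ± 98.3 bp in old and 597 ± 235 bp in young. Of these 19, many were weak peaks of 1 library, whose share of the difference was not computed. The 3 regions with a peak in all 6 libraries, the widest among them, accounted for 44.9%. They covered 1470 ± 175 bp in old and 1001 ± 105 bp in young (SD, n = 3). Of 11 regions found in 1 library, 1 was in old replicate 1, 5 in old replicate 2, 4 in old replicate 3 and 1 in a young library. Genome-wide, 55.6% of the 164465 regions found in 1 library were in old libraries, with 39796 in old replicate 2, more than in any other.

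The size of the Hs3st4 difference therefore depended on the peaks allowed. With a −log10 q of at least 2, unscaled coverage was 2230, 1095 and 1658 bp in old and 1231, 820 and 1227 bp in young, so that old replicate 2 fell among the young libraries before scaling, and the scaled log2 change was 0.68. With a −log10 q of at least 5, it was 1669, 1095 and 1170 bp in old and 0, 0 and 229 bp in young, with a log2 change of 2.71. At either limit old replicate 1 had the highest unscaled coverage, and its whole list was also the widest of the old lists. In old replicates 1, 2 and 3 the lists covered 57.8, 39.4 and 42.7 Mb at a limit of 2. At a limit of 5 they covered 41.0, 24.6 and 27.5 Mb.

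**Figure D3:**
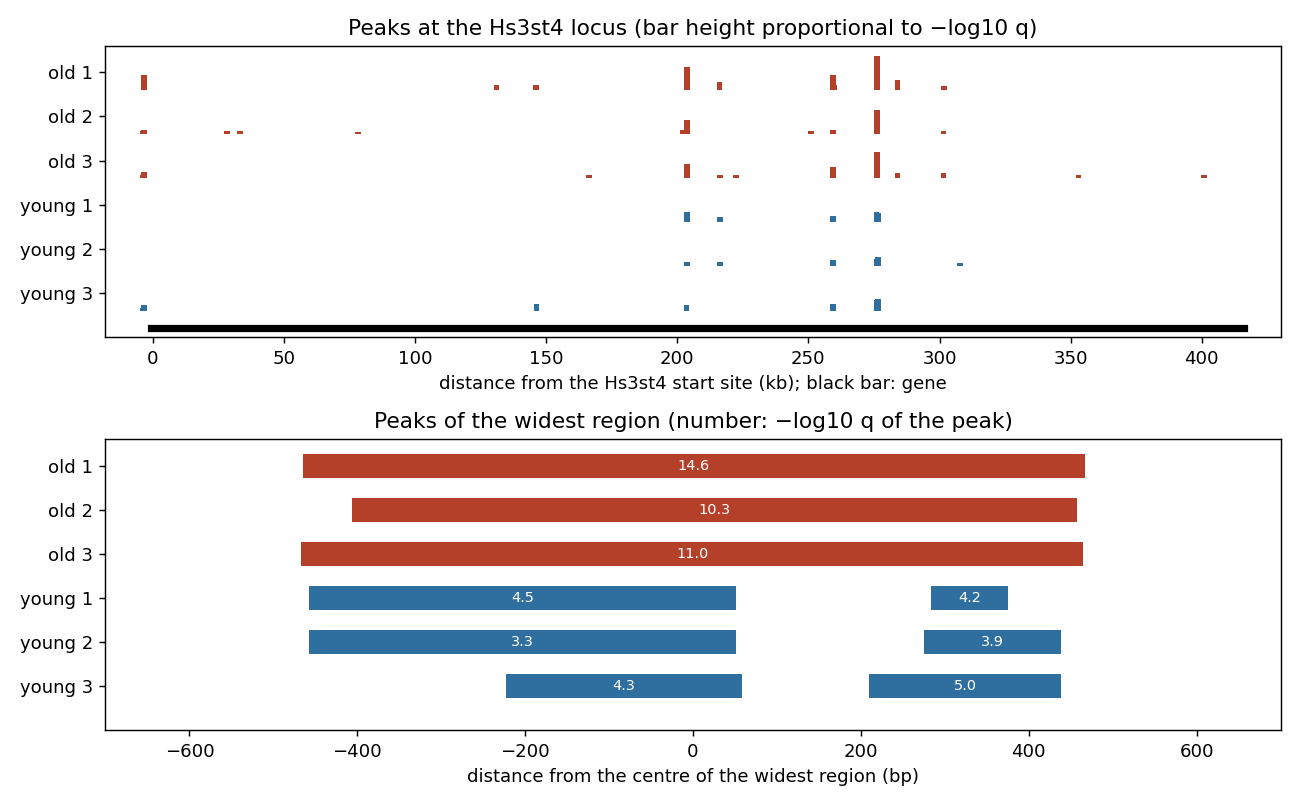
Peaks at the Hs3st4 locus by library, old (red) above young (blue). The upper panel gives the distance from the start site in kb, with bars proportional to −log10 q, and no peak stands over the start in any library. The lower panel gives the peaks of the widest region against the distance from its centre in bp, each with its −log10 q; each old library has 1 peak across the region and each young library has 2 peaks with a gap.

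Among the 50000 strongest peaks per library, Hs3st4 kept peaks in old libraries only. Unscaled, they covered 1224, 1095 and 932 bp in old replicates 1, 2 and 3, against 0 bp in each young library. The scaled mean was 1132 ± 108 bp in old (SD, n = 3), and 9.88% of all loci tested in these lists had every old value above every young value. A value of 0 here means that no peak ranked high enough, since the full young lists hold peaks in the same regions. The region at 276 kb passed in all 3 old libraries. That at 204 kb lay next to the limit: its peak ranked 48031 in old replicate 1 and 47413 in old replicate 2, inside, and 52670 in old replicate 3, outside, while the best young peaks at the locus ranked 93294, 87582 and 93815. With 100000 peaks per library, coverage was 1669, 1095 and 1405 bp in old and 658, 163 and 229 bp in young. With 25000 peaks, old replicate 2 alone kept a peak, with 0, 863 and 0 bp in old and 0 bp in each young library.

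The summed coverage of 7 lists of marker loci was set beside this, with no test. Among the 50000 strongest peaks, 8 macrophage loci had 15994 to 17110 bp in old and 19207 to 20012 bp in young, 6 mesenchymal stromal loci 15339 to 17444 bp in old and 12238 to 13840 bp in young, and 5 B-cell loci 8034 to 8822 bp in old and 6493 to 7581 bp in young. The ages did not overlap in these 3 sums and overlapped in the other 4. Among single loci tested in these lists 20.3% had no overlap, and no such share was computed for sums. Of the macrophage loci, Adgre1 overlapped between the ages, and Siglec1 was lower in each old library than in any young one. T-cell loci had 2724 to 3692 bp in old and 3602 to 4823 bp in young, with Cd3e and Cd8a at 0, and endothelial loci 4006 to 4437 bp in old and 3629 to 4212 bp in young. Neutrophil loci had 2784 to 4072 bp in old and 2698 to 3731 bp in young, with Ly6g at 0, and neuron loci 1598 to 1910 bp in old and 296 to 1987 bp in young. In the full lists the ages overlapped in every sum but that of 4 endothelial loci, with 11547 to 12224 bp in old and 12859 to 13158 bp in young. The part of these loci in the Hs3st4 difference was not tested.

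The loci whose 6 values in the full lists were most like those of Hs3st4 were Washc5, Fcamr, Gm7361, Npr3 and Catsperb. Likeness was the distance between the 6 values of log2(bp + 200), each locus centred on its mean, among 16942 loci; it was 0.25 to 0.39 for these 5, where the median locus had 1.21. Washc5 was covered over 2419 ± 157 bp in old and 1257 ± 36.0 bp in young (SD, n = 3), and Fcamr, the gene of a receptor for the Fc part of IgA and IgM, over 1094 ± 128 bp in old and 530 ± 71.9 bp in young. Npr3, the natriuretic peptide clearance receptor gene, was covered over 4293 ± 416 bp in old and 2537 ± 110 bp in young. Since these loci were picked for values like those of Hs3st4, their higher old values follow from that choice.

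None of the other 6 members passed the test on the full lists (limma on all 16943 loci with a mean of at least 500 bp, Benjamini-Hochberg adjustment, threshold 0.05). The test called 0.39% of all loci wider and 0.578% narrower in old, 66 and 98 loci. These counts depended on single libraries, with 15 wider and 14 narrower without young replicate 1 and 88 wider and 253 narrower without old replicate 1; leaving out any of the other 4 gave 26 to 42 wider and 22 to 86 narrower. One of the 6, Hs3st1, had an unadjusted p under 0.05, as had 12.8% of all loci. In all 6 the values of the ages overlapped, whereas 17% of all loci had no overlap, with old lower in 8.36%. Across all alternatives run for the 6 members, the smallest adjusted limma p was 0.0705 in the full lists and 0.17 in the lists of strongest peaks.

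Hs3st1 (chr5:39613935-39645592), the antithrombin-site enzyme gene, was covered over 1742, 1116 and 1291 bp in old replicates 1, 2 and 3, against 1603, 1792 and 2028 bp in young replicates 1, 2 and 3. Old replicate 1 stood among the young values and the other two old values below them. The log2 change was -0.36 (SE 0.14, limma, adjusted p = 0.29). Its start-site region, chr5:39644439-39645277, was covered over 650, 494 and 480 bp in old and 787, 648 and 709 bp in young. The best peak there ranked in the top 2.72% to 4.62% of the old lists and the top 2.47% to 4.04% of the young lists. A second region, chr5:39630715-39631456, lay 13.5 kb into the gene and covered 676, 426 and 544 bp in old and 654, 631 and 669 bp in young.

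Hs3st5 (chr10:36506590-36834397), whose enzyme can also make the antithrombin site, was thinly covered for its 328 kb. Its values were 1299, 1310 and 898 bp in old and 1450, 1055 and 1850 bp in young, with a log2 change of -0.26 (SE 0.18, limma, adjusted p = 0.61). The start-site region, chr10:36506751-36507637, was covered over 678, 499 and 346 bp in old and 757, 549 and 732 bp in young. The region chr10:36554198-36554338 had peaks of 123, 29 and 141 bp in young libraries and none in old ones. No peak of Hs3st5 reached the 50000 strongest of any library.

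Hs3st3b1 and Hs3st3a1, both on chromosome 11, had the most bp under peaks of the 7 members. Hs3st3b1 (chr11:63884693-63922284) had 3548, 3096 and 3386 bp in old and 3617, 3000 and 3373 bp in young, a log2 change of 0.0072 (SE 0.09, limma, adjusted p = 0.99). The ages matched closely in mean and spread. Its start-site region, chr11:63921843-63922621, held a peak in the top 1.07% to 1.44% of the old lists and the top 2.15% to 3.12% of the young lists. It was the highest-ranked peak of the family in each old library and in young replicate 3, while an Hs3st6 peak ranked higher in young replicates 1 and 2. That region was covered over 570, 553 and 354 bp in old and 687, 405 and 763 bp in young.

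Hs3st3a1 (chr11:64435332-64522835) had 5450, 4910 and 5260 bp in old and 5108, 4406 and 5152 bp in young, a log2 change of 0.09 (SE 0.08, limma, adjusted p = 0.72). The start-site region, chr11:64434786-64436413, also lies over the lncRNA gene F930015N05Rik. It was covered over 1448, 847 and 1167 bp in old and 1595, 1302 and 1261 bp in young. The strongest peak of the locus stood inside the gene, 33.7 kb downstream of the start (chr11:64468748-64469353), and covered 509, 529 and 507 bp in old and 521, 450 and 472 bp in young. Close to it, chr11:64472732-64473063 was covered over 234, 322 and 216 bp in old libraries, against 0, 29 and 118 bp in young libraries, without overlap. The region chr11:64503039-64503447 went the other way, with 225, 0 and 0 bp in old libraries and 296, 332 and 409 bp in young libraries, also without overlap. Of the 26 Hs3st3a1 regions, 1 had every old value above every young value and 1 had every old value below, where 2.26% and 7.08% of all regions did.

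Hs3st2 (chr7:121391585-121501768) had 611, 810 and 1351 bp in old and 677, 635 and 756 bp in young, a log2 change of 0.29 (SE 0.21, limma, adjusted p = 0.64). Old replicate 3 stood apart, and without it the log2 change was 0.03. Of the 12 Hs3st2 regions found in 1 library, 8 were in old replicate 3. The region chr7:121446338-121446569 had a peak in every library, of 226, 194 and 218 bp in old and 232, 216 and 223 bp in young. No peak of this locus reached the 50000 strongest of any library.

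Hs3st6 (chr17:24752988-24758690), the shortest gene, had 1073, 626 and 1227 bp in old and 1328, 1377 and 1163 bp in young, a log2 change of -0.38 (SE 0.18, limma, adjusted p = 0.40). Old replicate 2 was lowest, and without it the log2 change was -0.14. Inside the gene span alone, unscaled coverage was 326, 236 and 268 bp in old and 583, 479 and 573 bp in young, without overlap, at too few bp for the filter of 500 bp. The share of all gene spans with such a gap was not computed. With flanks, 8.36% of all tested loci had every old value below every young value. The region chr17:24754290-24754483, inside the gene, had peaks of 175, 95 and 167 bp in young libraries and none in old ones. The strongest peak of the locus (chr17:24745607-24746140) lay outside the gene, with 369, 223 and 357 bp in old and 534, 234 and 386 bp in young.

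Among the strongest peaks, 3 of these 6 members passed the filter and none passed the test (limma, 14380 loci, 0 with an unadjusted p under 0.05, against 14.8% of all loci). There the test called 1.28% of all loci, 0.841% wider and 0.438% narrower in old. Without old replicate 1 the loci called wider and narrower were 0 and 3, without old replicate 2 they were 5 and 5, and without old replicate 3 they were 5 and 6. Without young replicate 1, 2 or 3 they were 47 and 6, 60 and 25, and 88 and 20, and with a replicate block or the covariate of total coverage they were 0 and 0. The ages overlapped at all 3, where 20.3% of all loci had no overlap, with old lower in 10.5%. Hs3st3b1 had 1289, 834 and 1229 bp in old and 835, 810 and 890 bp in young (log2 change 0.32, SE 0.16, limma, adjusted p = 0.42), with old replicate 2 among the young values. Hs3st1 had a log2 change of 0.10 (SE 0.32, limma, adjusted p = 0.92) and Hs3st3a1 of -0.15 (SE 0.31, limma, adjusted p = 0.87).

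Per kb of locus, 4 members were more densely covered than the other 3, which are the longest loci. With flanks, the 4 loci ran from 25.7 to 108 kb, and Hs3st2, Hs3st5 and Hs3st4 measured 130, 348 and 437 kb. The part of locus length in this split was not tested. In old libraries, Hs3st3b1 had 58.1 ± 3.97 bp per kb, Hs3st3a1 48.4 ± 2.55, Hs3st6 37.9 ± 12.2 and Hs3st1 26.8 ± 6.25 bp per kb (SD, n = 3). In young libraries, Hs3st3b1 had 57.8 ± 5.39, Hs3st6 50.2 ± 4.35, Hs3st3a1 45.5 ± 3.90 and Hs3st1 35.0 ± 4.12 bp per kb. Hs3st6 and its neighbours in this order overlapped in old, and did so in young as well. The median of all loci was 42.4 bp per kb in old and 42.6 in young, so that Hs3st1 lay below it at both ages and Hs3st6 below it in old.

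Hs3st4 changed place among these other 3. In old libraries Hs3st2 had 7.10 ± 2.94, Hs3st4 5.47 ± 0.546 and Hs3st5 3.36 ± 0.675 bp per kb, and in young libraries Hs3st2 had 5.29 ± 0.470, Hs3st5 4.17 ± 1.1 and Hs3st4 2.58 ± 0.0787 bp per kb (SD, n = 3). Per kb, every old library had more coverage at Hs3st4 than any old library had at Hs3st5. Every young library had less at Hs3st4 than any young library had at Hs3st5. Hs3st4 was chosen for its difference between the ages, and this change of place restates the same values per kb. Hs3st2 overlapped with Hs3st4 in old and with Hs3st5 in young. Even in old libraries, Hs3st4 was denser than just 19% of all loci.

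Regions seen at a single age were few. The 7 loci held 132 merged regions, of which 1 (0.758%) had a peak in all 3 old and no young library, where 0.513% of 403801 regions genome-wide did. All 3 young and no old library had a peak in 3 (2.27%), where 1.42% of all regions did. These shares lie near the background. A peak in all 6 libraries was found at 30 (22.7%) of the 132, and 10 of these 30 belonged to Hs3st3b1, against 30% of all regions. A peak in 1 library was found at 57 (43.2%), against 40.7% of all regions, and 40 of the 57 (70.2%) were in old libraries, where 55.6% of all such regions were. Hs3st2 gave 11 of these 40 and Hs3st4, chosen for its coverage in old libraries, gave 10. Without old replicate 1 the regions seen in young alone numbered 8, and without young replicate 1 or young replicate 2 they numbered 5. Leaving out a library loosens the rule, so these counts can only stay or rise, and no genome-wide share was computed for them. Among the 50000 strongest peaks the 7 loci held 14 regions: 1 in all 3 old and no young library, the Hs3st4 region at 276 kb (3.29% of all 66216 regions), 0 in all 3 young and no old (2.59%), 5 in all 6 libraries (50.9%) and 5 in 1 library (14.4%).

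The other genes of heparan sulfate synthesis, breakdown and display, 43 in all, went in both directions. On the full lists all 43 were tested, 22 higher and 21 lower in old, with a median log2 change of 0.0082, beside 0.0073 over all 16943 loci. Of the 43, 8 had an unadjusted p under 0.05, against 12.8% of all loci, and 1 passed, against 0.968% of all loci: Gpc1, the gene of glypican-1, a membrane-anchored core protein that carries the chains (chr1:92831645-92860211). It had 2913, 3234 and 3095 bp in old and 2383, 2257 and 2223 bp in young, without overlap (log2 change 0.40, SE 0.09, limma, adjusted p = 0.0411). The call did not hold without old replicate 2, old replicate 3 or any 1 of the young libraries, and over all 15 alternatives the limma adjusted p ran between 0.0358 and 0.86, passing in 4. With a −log10 q of at least 5 its log2 change was -0.26.

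By class, the 5 chain polymerase loci had a median log2 change of 0.07, the 4 N-deacetylase/N-sulfotransferase loci 0.00097 and the 4 loci of 2-O- and 6-O-sulfotransferases -0.03, and 0 of these 13 passed (limma, 3 with an unadjusted p under 0.05, where 12.8% of all loci had one). Slc35b3, a Golgi transporter gene for the sulfate donor, had 1696 ± 132 bp in old and 1212 ± 125 bp in young (SD, n = 3; log2 change 0.43, SE 0.13, limma, adjusted p = 0.13). Glce, which codes for the epimerase of uronic acid units, had 2421 ± 322 bp in old and 2914 ± 133 bp in young (log2 change -0.25, SE 0.10, limma, adjusted p = 0.28). Ndst3, an N-deacetylase/N-sulfotransferase gene, had 1938 ± 533 bp in old and 2542 ± 418 bp in young (log2 change -0.38, SE 0.16, limma, adjusted p = 0.36). Ndst3 passed without old replicate 1 (log2 change -0.56, limma, adjusted p = 0.0484).

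Among the strongest peaks 34 of the 43 loci were tested and 0 passed (limma, 4 with an unadjusted p under 0.05), where 1.28% of all loci passed and 14.8% had such a p, with a median log2 change of 0.02 beside -0.0019 over all 14380 loci. Col18a1, the collagen XVIII core protein gene, had 2675 ± 633 bp in old and 1497 ± 211 bp in young (SD, n = 3; log2 change 0.74, SE 0.17, limma, adjusted p = 0.0932). The polymerase genes Ext1 and Ext2, whose products work as a complex, had opposite signs, and both signs turned with 25000 peaks per library, to -0.29 for Ext2 and 0.30 for Ext1. Ext2 had 2108 ± 650 bp in old and 1378 ± 163 bp in young (log2 change 0.52, SE 0.19, limma, adjusted p = 0.25). Ext1 had 6594 ± 280 bp in old and 7921 ± 97.1 bp in young (log2 change -0.26, SE 0.07, limma, adjusted p = 0.13). Slc35b2, the other sulfate donor transporter gene, had a log2 change of -0.20 (SE 0.08, limma, adjusted p = 0.33).

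**Figure D4:**
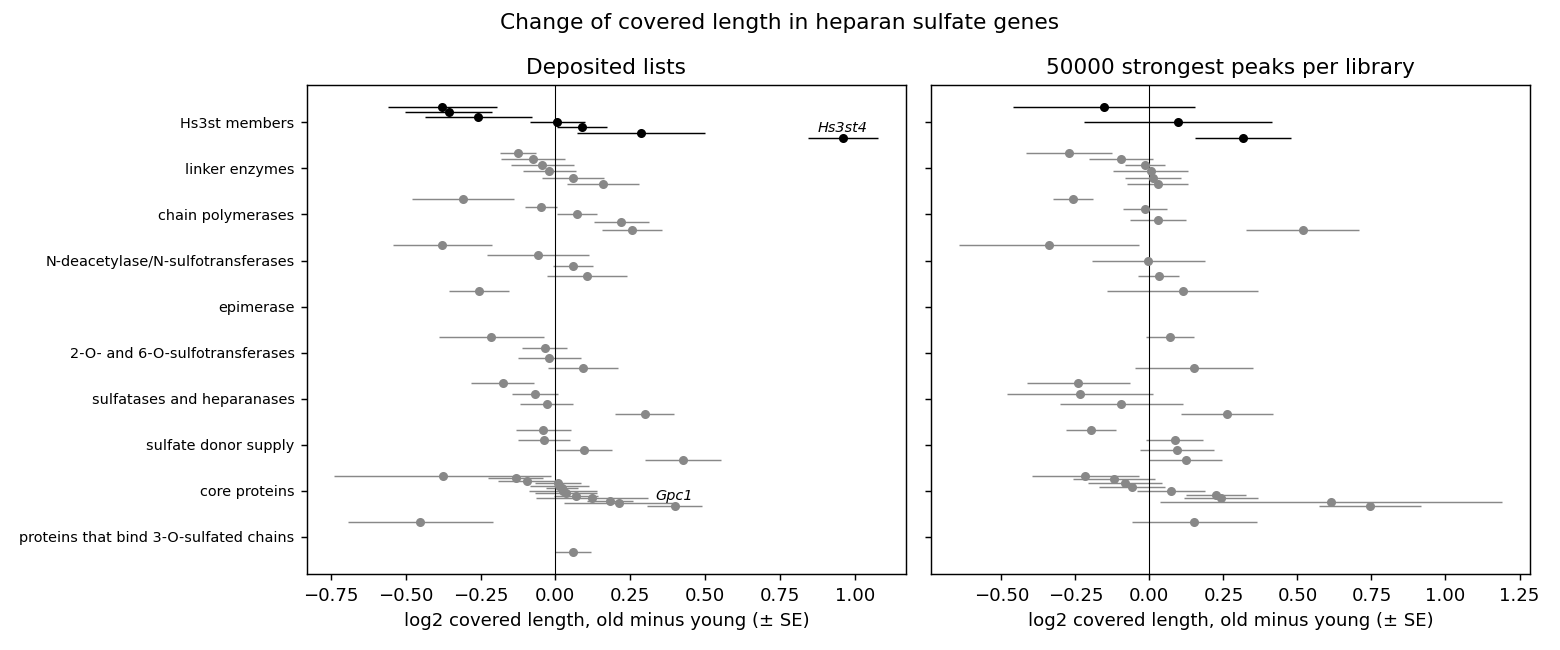
Log2 change of covered length (old minus young, on log2(bp + 200), bars ± SE) for the Hs3st members (black) and 43 other heparan sulfate genes by class (grey), in the full lists (left) and among the 50000 strongest peaks (right). Hs3st4, at 0.96 on the left, stands to the right of every other locus drawn. It was chosen for its greater coverage in old libraries, so its place there is no separate result. It is not drawn on the right because its young libraries are at 0 bp.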

How the data were processed

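The 6 Omni-ATAC libraries, 3 old and 3 young, were grouped by their labels. Per the submitters' processing notes, the genome build was mm10 and the tools included Trim Galore 0.4.4, Bowtie2 2.2.6, Picard and MACS2 2.1.0.20140616. How duplicates and read ends were handled is not given in the sources used here, and both bear on where weak peaks are called. The authors deposited 1 broad peak list per library. Each deposited peak has a score (10 times its −log10 q, rounded down), a fold enrichment ratio over local background, a −log10 p and a −log10 q, which was over 1 for every peak. These are the authors' values for single peaks of single libraries, used here to describe, rank or filter peaks.

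Computed here were the bp of each locus (gene and 10 kb on each side) under peaks, divided by the library's total over all loci and rescaled. The test was limma 3.58.1 (R 4.3.3, robust, with a trend) on log2(bp + 200) for loci averaging at least 500 bp. Old was compared with young, and p-values were adjusted by Benjamini-Hochberg over every locus tested. A pseudocount of 200 bp understates changes of thinly covered loci. The 50000-peak lists hold the peaks with the highest −log10 q per library. The gene table gives no exons, so exons and introns were not separated. Start sites and strands came from the RefSeq promoter table. The members, lists and tests were chosen with earlier results of these data known. Named genes were the 7 members, pathway genes past the threshold or with the 2 smallest p per direction, and the 5 loci most like Hs3st4. Alternatives are given in the closing section. Simulated data with known changes were used to check the test. Python 3.11.15, numpy 2.4.6, pandas 2.3.3 and matplotlib 3.10.9 were used.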

Additional observations from a re-analysis of the deposited data

How the results depend on the processing

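Alternatives were other −log10 q limits, other list lengths, no scaling, quantile normalization, a pseudocount of 50 bp, no filter, gene spans without flanks, total covered length as a covariate, a replicate block and each library left out; those for start-site windows were added after the data were seen. The Hs3st4 log2 change in the full lists, 0.96, was 0.81 without scaling, 0.68 at a −log10 q of at least 2 and 2.71 at 5, and 0.92 to 1.04 with a library left out. Among the strongest peaks its fitted value of 2.73 depends on the pseudocount, since young libraries are at 0 bp: it was 4.56 with 50 bp, 1.73 with 100000 peaks per library and 2.71 to 2.74 with a library left out, and 25000 peaks left too few bp for the filter.

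None of the other 6 members passed under any alternative run. No label says whether same-numbered libraries are paired. Deviations of same-numbered libraries correlated at 0.14, 0.14 and -0.16 over loci in the full lists, where not every library correlated best with its own number. In the lists of strongest peaks they correlated at 0.044, 0.052 and 0.030, where every library did. That is a hint from the data and not the design, and it cannot settle whether the libraries are paired. With the replicate block, 0 other members passed in either kind of list and Gpc1 had 0.40 (limma, adjusted p = 0.0395). Over all loci, the block gave 95 wider and 170 narrower in the full lists and 0 and 0 among the strongest peaks. The count of pathway loci wider in old, 1, was 0 at a −log10 q of at least 2 or 5, with gene spans, no filter, no scaling or the covariate, and 0 to 1 with a library left out; the count narrower was 0 to 1. Counts of regions in 3 old and 0 young libraries, 1, were 0 at a −log10 q of at least 2, 2 at 5 and 1 to 3 with a library left out, and 1 to 2 among the strongest peaks. Counts in 3 young and 0 old, 3, were 0 at 2, 1 at 5 and 3 to 8 with a library left out. Leaving out a library loosens both rules, so those counts can only stay or rise. Start-site windows with a peak in all 6 libraries, 4, were 2 at a −log10 q of at least 5, where Hs3st3a1 kept 5 libraries and Hs3st5 kept 1. They were 2 among the strongest peaks, where Hs3st3a1 kept 1 library and Hs3st5 kept 0. The Hs3st4 window had none in any setting, while the Hs3st2 window had a peak in 5 libraries when widened by 1 kb on each side.

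Signs turned for uncalled members, for Gpc1, which had passed, and for Ext1 and Ext2, and the cause was not tested. In the full lists, Hs3st1 had 0.18 at a −log10 q of at least 5 and Hs3st3a1 -0.069 without scaling. Hs3st3b1 had -0.017 at 2, -0.31 at 5, -0.057 with gene spans, -0.15 without scaling, -0.0030 with quantile normalization and -0.062 to 0.065 with a library left out. Gpc1 had -0.26 at 5. Among the strongest peaks, Hs3st1 had -0.28 with 100000 peaks, -0.0019 without scaling, -0.058 with the covariate and -0.17 to 0.35 with a library left out. Hs3st3a1 had 0.39 with 100000 peaks and -0.49 to 0.063 with a library left out, and Hs3st3b1 had -0.11 and -0.13 with 100000 and 25000 peaks. With 25000 peaks Ext2 had -0.29 and Ext1 0.30. Unknown read depth limits every statement on missing peaks.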
